A study of Homo sapiens with 4 samples.

Results

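The zinc finger genes of band 19p12 form one of the large tandem clusters on human chromosome 19, and 36 of them, from ZNF101 and ZNF14 on the telomere side to ZNF254 nearest the centromere, were followed here in 2 prostate cancer lines. The genes were chosen by symbol and position, and the cluster was taken up with the difference between these lines already known, so that the counts below describe the cluster and are not a test of it. Each gene was read from the probe set that the platform annotation gives to that gene alone, and where there were several, from the brightest by its mean over the 4 arrays. Under this rule 33 of the 36 genes were measured, out of 18417 genes on the array. ZNF98 and ZNF728 appeared only in probe sets shared with other members, and ZNF66 appeared in none.

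PC-3-BM, labelled with high metastatic potential, is a subclone that the study recovered from long bones of nude mice in the third round of intracardiac injection. PC-3, labelled with poor metastatic potential, is the parental line, which itself comes from a bone metastasis of prostate cancer. Both lines carried luciferase and green fluorescent protein. The comparison asks which transcripts differ between cells of high and low ability to grow in bone. Each line had 2 arrays, numbered in their titles. No source used here says if the numbered arrays stand for different cultures, and the p-values therefore reflect the variation of these arrays alone, which could be technical. The labels speak of growth in mice and the methods of culture. PC-3-BM was described as 1 subclone, so a feature of that subclone and a feature of growth in bone cannot be told apart.

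Most genes of the cluster encode proteins with an N-terminal Krüppel-associated box (KRAB) followed by a long array of C2H2 zinc fingers. The fingers bind DNA, often within retroelements, while the KRAB domain recruits the co-repressor TRIM28 (KAP1), which brings the histone methyltransferase SETDB1 and leads to H3K9 methylation and silencing. The cluster grew by tandem duplication in primates, and its members are close relatives of each other. ZNF91 represses SVA elements, ZNF93 represses a family of LINE-1 elements, and ZNF675, also called TIZ, binds TRAF6 and dampens RANK signalling, the pathway that drives osteoclast formation. For most of the other members no specific target is given here.

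The kinship of the genes could be read from their promoters. RefSeq promoter windows (GRCh38.p14) were available for 28 of the 36 genes, and the 250 bases before the start site were used. Pairwise identity between these windows had a median of 82.4% over 378 pairs, with a range of 51.1 to 92%. The windows of ZNF14 and ZNF101, the first genes of the cluster, stood farthest apart, with 64.4% and 67% identity to their nearest member. TCCAATCA (reverse complement TGATTGGA) was among the octamers shared by the most members, and it contains the CCAAT box bound by the factor NF-Y. It was picked from the members' own windows, and among tied octamers as the one found in the fewest of all promoter windows. Its low share in other windows was therefore partly set by that choice. With both strands searched, the octamer stood in the first window of 28 of 28 genes. The shares were 10.8% of 232 windows of other chromosome 19 genes named ZNF plus a number and 1.45% of all 35116 windows. The last copy began 24 to 85 bases before the start site, with a median of 55.5, always in the direction of transcription. The stretches below are shown because they carry this shared element in genes that differed strongly between the lines (ZNF730, ZNF724, ZNF91 and ZNF675) and in genes with differences close to 0 (ZNF14, ZNF90, ZNF626 and ZNF100), with the octamer in capitals.
ZNF730 (chr19:23116912-23116983, plus strand): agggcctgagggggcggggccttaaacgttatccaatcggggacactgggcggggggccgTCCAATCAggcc
ZNF724 (chr19:23250436-23250507, minus strand): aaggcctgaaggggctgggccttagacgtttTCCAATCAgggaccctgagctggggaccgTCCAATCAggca
ZNF91 (chr19:23395519-23395590, minus strand): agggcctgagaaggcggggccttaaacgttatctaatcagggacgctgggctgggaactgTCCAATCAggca
ZNF675 (chr19:23687225-23687296, minus strand): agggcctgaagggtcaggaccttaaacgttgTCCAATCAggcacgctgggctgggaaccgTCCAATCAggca
ZNF14 (chr19:19733155-19733226, minus strand): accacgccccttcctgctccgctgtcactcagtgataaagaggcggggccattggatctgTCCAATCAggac
ZNF90 (chr19:20077886-20077957, plus strand): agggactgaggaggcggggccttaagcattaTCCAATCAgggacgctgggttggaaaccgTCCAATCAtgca
ZNF626 (chr19:20661618-20661689, minus strand): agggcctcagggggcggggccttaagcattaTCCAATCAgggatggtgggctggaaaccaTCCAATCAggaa
ZNF100 (chr19:21767620-21767691, minus strand): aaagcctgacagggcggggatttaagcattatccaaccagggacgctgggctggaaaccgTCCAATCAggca
The octamer was thus present in both kinds of gene. Of the second kind, ZNF90, ZNF626 and ZNF100 had means under 5.02, the lower quartile of all values, in both lines. A level above background is not shown there, so a difference close to 0 does not show an unchanged transcript. A second copy upstream was found in 15 genes, among them ZNF724, ZNF675, ZNF90 and ZNF626, while 13 genes held 1 copy, among them ZNF730, ZNF91, ZNF14 and ZNF100. A match to these letters is a description of the sequence and not a binding site.

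PC-3-BM cells had lower levels of most genes of the cluster. At an adjusted p below 0.05 (limma, Benjamini-Hochberg over 33297 probe sets), 19 of the 33 measured genes were lower in PC-3-BM, which was 57.6%, against 11.6% of all probe sets and 14.8% of all genes called lower. None was called higher, against 11.6% of all probe sets and 14.8% of all genes. At an unadjusted p below 0.05 none was higher either and 24 were lower, with no share of all genes taken at that threshold. The median log2 difference, PC-3-BM minus PC-3, was -0.57 over the 33 genes and -0.04 over all genes. A fall of more than 1 on the log2 scale was seen in 8 genes, which was 24.2% of those measured, against 1.44% of all genes. The arrays of the lines did not overlap, with both PC-3-BM arrays lower, in 26 genes or 78.8%, against 39.8% of all genes. These values are on the log2 scale made by the robust multichip average (RMA), on which a difference of 1 is a doubling or halving. Leaving out PC-3 array 1 or PC-3-BM array 1 reduced the count of lower genes to 12 in each case, while the share of all probe sets called lower was 3.24% and 4.69% in these fits.

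**Figure D1:**
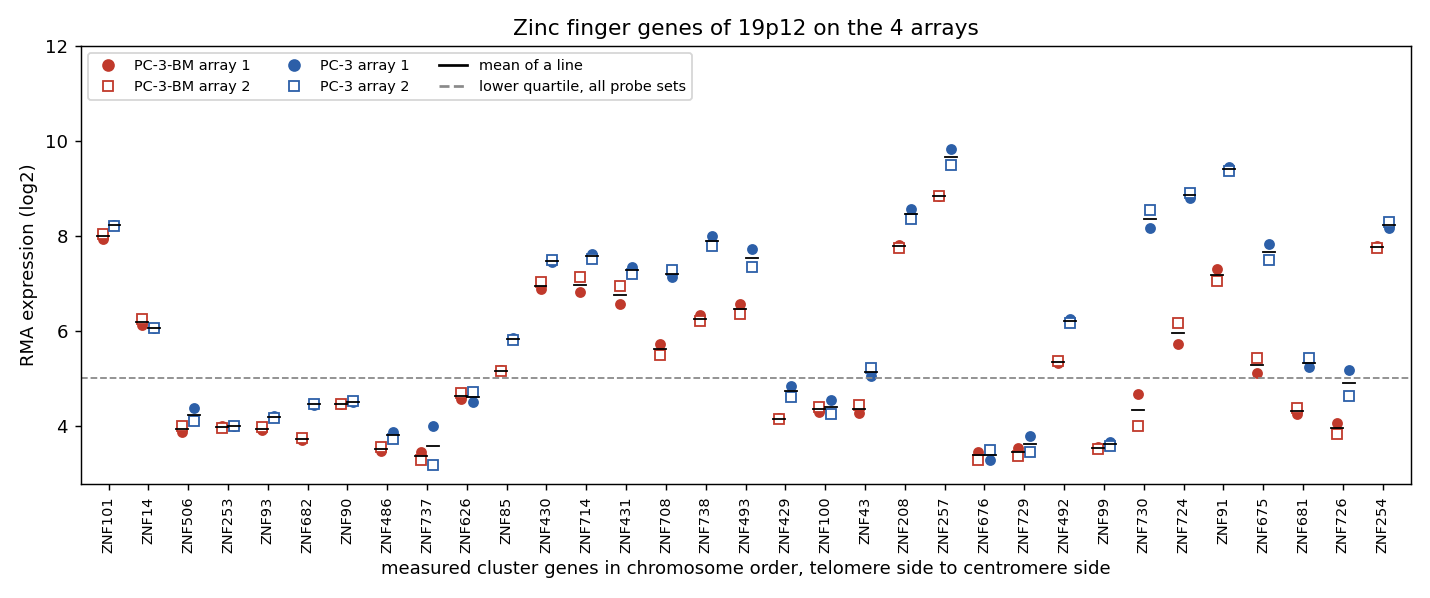
RMA expression (log2, vertical axis) of the 33 measured genes in chromosome order, with PC-3-BM arrays in red and PC-3 arrays in blue, filled circles for array 1, open squares for array 2, a bar for the mean of a line and a dashed line at 5.02, the lower quartile of all probe sets. The widest gaps between the lines are at ZNF730, ZNF724, ZNF91 and ZNF675 on the right, and the arrays lie closer together for most genes on the left.

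The 4 genes with the greatest falls were neighbours. ZNF730 had 4.68 and 4.01 on the PC-3-BM arrays, against 8.17 and 8.55 on the PC-3 arrays. The log2 difference was -4.01 ± 0.25 SE (adjusted p = 0.00212), and no fold is given, since the PC-3-BM mean of 4.35 lay under the lower quartile of all probe sets, 5.02, where a level above background is not shown. ZNF724, the next gene, had 5.74 and 6.18 in PC-3-BM, against 8.80 and 8.91 in PC-3. Both PC-3-BM arrays were far below both PC-3 arrays, and the level in PC-3-BM was 13.4% of that in PC-3 (log2 difference -2.90 ± 0.16 SE, adjusted p = 0.0018). ZNF91, the repressor of SVA elements, had 7.32 and 7.06 in PC-3-BM, against 9.46 and 9.37 in PC-3. The arrays of each line were close to each other, and the gene was 4.67-fold lower in PC-3-BM (log2 difference -2.22 ± 0.11 SE, adjusted p = 0.00149), the lowest adjusted p of the cluster. ZNF675, the TRAF6-binding inhibitor of RANK signalling, had 5.13 and 5.45 in PC-3-BM, against 7.84 and 7.49 in PC-3. Its level in PC-3-BM was 19.3% of that in PC-3, with no overlap of the arrays (log2 difference -2.37 ± 0.16 SE, adjusted p = 0.00245).

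The same direction continued on the centromere side of these genes. ZNF681 had 4.27 and 4.38 in PC-3-BM, against 5.24 and 5.44 in PC-3, with a log2 difference of -1.02 ± 0.10 SE (adjusted p = 0.00468). Both PC-3-BM values lay under the lower quartile of the arrays, where RMA gives no detection call. ZNF726 was just short of a difference of 1, with 4.07 and 3.85 in PC-3-BM, against 5.19 and 4.64 in PC-3 (log2 difference -0.95, adjusted p = 0.031), and its mean lay under that quartile in both lines. ZNF254, the last gene of the cluster, had 7.79 and 7.75 in PC-3-BM, against 8.17 and 8.29 in PC-3. It fell by 0.46 on the log2 scale (adjusted p = 0.0168), the smallest fall among the called genes. From ZNF730 to ZNF254, 7 measured members in a row were lower, the longest such run in the cluster, with RPSA2, which is no member and did not pass the test, between ZNF681 and ZNF726. ZNF726 kept its call without PC-3 array 2 (adjusted p = 0.0394) and lost it without any of the others (0.0751 to 0.12), and ZNF254 lost it without each array in turn (0.0612 to 0.0917).

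A second group of strong falls lay in the middle of the cluster, at ZNF708, ZNF738 and ZNF493, again neighbours. ZNF708 had 5.74 and 5.51 in PC-3-BM, against 7.14 and 7.29 in PC-3, a log2 difference of -1.58 ± 0.11 SE (adjusted p = 0.00255). ZNF738 had 6.34 and 6.21 in PC-3-BM, against 8.0 and 7.79 in PC-3. It was 3.08-fold lower in PC-3-BM (log2 difference -1.62 ± 0.10 SE, adjusted p = 0.00221), and the arrays of the lines stood well apart, as they did for ZNF708. ZNF493 had 6.58 and 6.36 in PC-3-BM, against 7.74 and 7.36 in PC-3, a 2.12-fold lower level (log2 difference -1.08 ± 0.16 SE, adjusted p = 0.0112). Without PC-3 array 1 its adjusted p was 0.0508, and without PC-3-BM array 2 it was 0.0548.

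The remaining 11 called genes fell by 0.46 to 0.95 on the log2 scale, with adjusted p from 0.00379 to 0.031, and 3 of them had means under the lower quartile in both lines. They were ZNF682, ZNF85, ZNF430, ZNF714, ZNF429, ZNF43, ZNF208, ZNF257 and ZNF492, besides ZNF726 and ZNF254. ZNF257, the brightest of the genes outside the 8 strong falls, had 8.85 and 8.84 in PC-3-BM, against 9.84 and 9.50 in PC-3, a log2 difference of -0.83 ± 0.13 SE (adjusted p = 0.013). ZNF208 had 7.81 and 7.76 in PC-3-BM, against 8.57 and 8.36 in PC-3, a log2 difference of -0.68 ± 0.10 SE (adjusted p = 0.0108). In both genes the PC-3-BM arrays were lower than either PC-3 array, and in both the call was lost without PC-3-BM array 1 (adjusted p 0.0653 for ZNF257 and 0.0543 for ZNF208) and without PC-3-BM array 2 (0.0616 and 0.0565). ZNF208 also lost it without PC-3 array 1, at 0.0547.

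**Figure D2:**
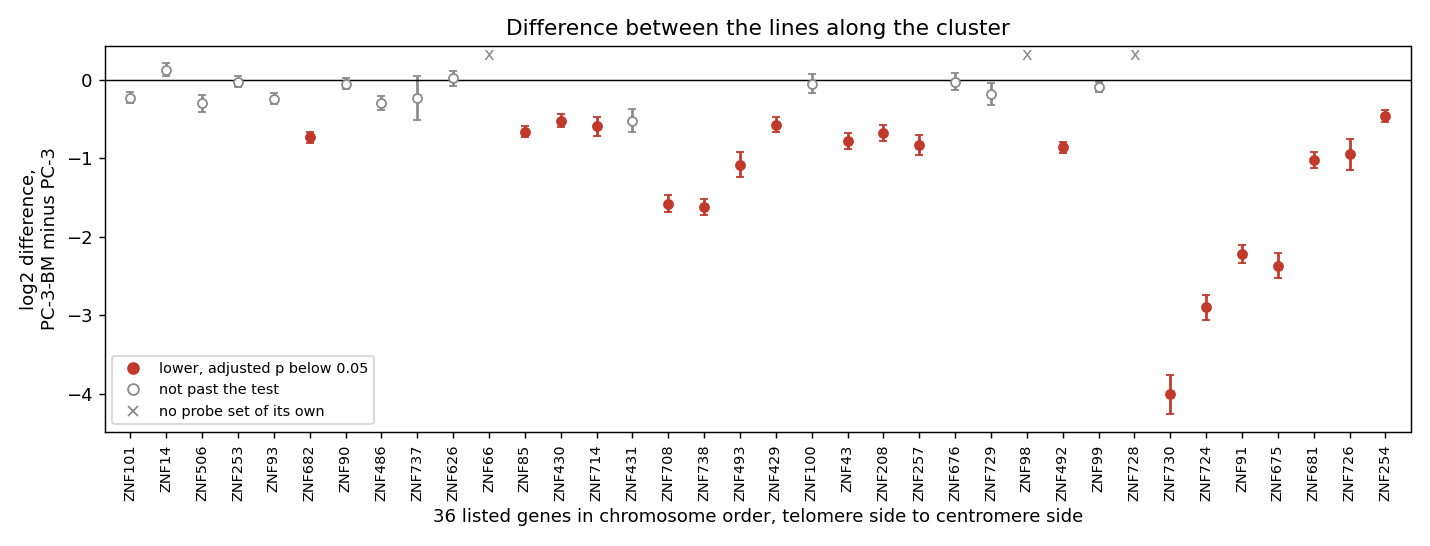
Log2 difference, PC-3-BM minus PC-3 (vertical axis), of the 36 listed genes in chromosome order, with bars for the SE of the fit, filled red points for the 19 genes lower at an adjusted p below 0.05, open grey points for the 14 not past the test and a cross for the 3 with no probe set of their own. Differences on the telomere side lie between -0.73 and 0.13, and the lowest is -4.01 at ZNF730.

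Among the 14 genes not past the test, differences ran from -0.52 to 0.13. ZNF431 lay closest to the threshold, with 6.57 and 6.95 in PC-3-BM, against 7.36 and 7.21 in PC-3 (log2 difference -0.52, adjusted p = 0.0668). ZNF14 was the single gene whose PC-3-BM arrays, 6.13 and 6.25, both lay above the PC-3 arrays, 6.08 and 6.06 (log2 difference 0.13, adjusted p = 0.313). ZNF101, with 7.95 and 8.04 in PC-3-BM and 8.24 and 8.21 in PC-3, was likewise above the lower quartile and differed by -0.23 (adjusted p = 0.0887). The arrays of the lines overlapped in 6 genes, ZNF253, ZNF737, ZNF626, ZNF100, ZNF676 and ZNF729. Over all 18417 genes, they did not overlap in 7325 with PC-3-BM lower and in 5682 with PC-3-BM higher. ZNF93, the repressor of LINE-1 elements, had 3.92 and 3.98 in PC-3-BM, against 4.21 and 4.17 in PC-3 (log2 difference -0.24, adjusted p = 0.0703). Of the 14 genes, 11 had means under the lower quartile in both lines. Over the whole cluster, 5 of the 16 genes with a 4-array mean under that quartile were lower, with a median difference of -0.23, and 14 of the 17 genes at or above it, with a median of -0.83. This mean includes the PC-3 arrays, so a gene could reach the brighter class through PC-3 alone. ZNF730 did so, with means of 4.35 in PC-3-BM and 8.36 in PC-3. The share of all genes called lower was not taken for each class, and the split only describes the cluster.

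Along the chromosome the falls were uneven. Among the first 12 listed genes, ZNF101 to ZNF85, 2 of 11 measured genes were lower, ZNF682 and ZNF85, with a median difference of -0.23 and no fall over 1. That share of 18.2% was near the 14.8% of all genes called lower. Among the next 12, ZNF430 to ZNF676, 9 of 12 (75%) were lower with a median of -0.63, and 3 fell by more than 1. Among the last 12, ZNF729 to ZNF254, 8 of 10 measured genes (80%) were lower with a median of -0.98, and 5 fell by more than 1. The level differed along the same order, since 8 of the 11 measured genes in the first group had a 4-array mean under the lower quartile, against 4 in each of the other groups. Its part in the gradient was not tested.

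Genes in and beside the cluster that are not listed members differed by -0.61 to 0.21. Of the 4 measured between ZNF101 and ZNF254, the pseudogene GOLGA2P9 fell, with 6.15 and 6.09 in PC-3-BM, against 6.51 and 6.54 in PC-3 (log2 difference -0.41 ± 0.07 SE, adjusted p = 0.0173). ZNF826P, CCNYL6 and RPSA2 differed by -0.12, -0.03 and -0.18 and overlapped between the lines, and all had means under the lower quartile in both lines. Of the 5 nearest genes on the telomere side, GMIP fell by 0.61 (adjusted p = 0.0238) and LPAR2, a lysophosphatidic acid receptor, by 0.45 (adjusted p = 0.0205) on the log2 scale. The 5 nearest genes on the centromere side, LOC100420587, VSTM2B, POP4, PLEKHF1 and C19orf12, differed by -0.20 to 0.21, and none passed the test.

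On the rest of chromosome 19, 36 of 188 other genes whose symbol is ZNF plus a number were lower in PC-3-BM (19.1%) and 26 were higher (13.8%), with a median difference of -0.05. With 1 array left out, 14 to 22 of them were lower, 14 without either PC-3 array and 22 without either PC-3-BM array. The falls over 1 among them numbered 11, all on the far side of the cluster, and reached -2.18 at ZNF382. Genes with a longer symbol, such as ZNF667-AS1 at -5.82, were counted among the other genes. Of 218 genes named ZNF plus a number on other chromosomes, 22.5% were lower and the median was -0.09. Of 1088 other chromosome 19 genes, 9.93% were lower. In all, 27 of the 1309 measured genes of chromosome 19 fell by more than 1, and 8 of these were cluster genes. The difference between the cluster and these groups was not tested, since the cluster was taken up with its values known.

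**Figure D3:**
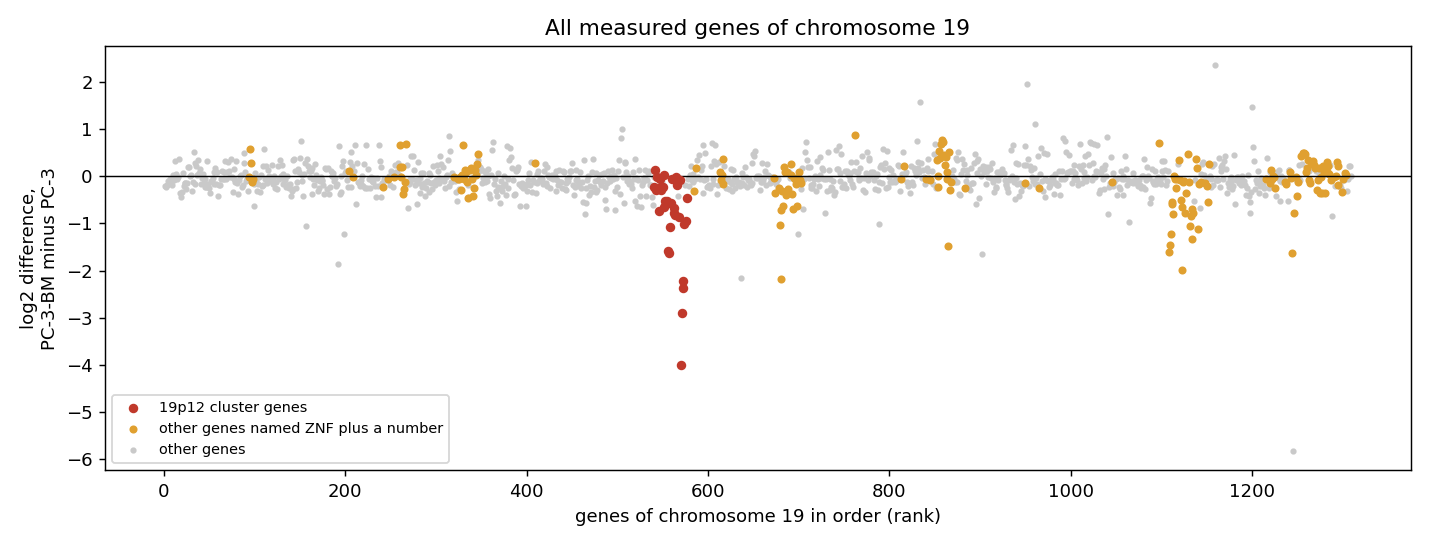
Log2 difference, PC-3-BM minus PC-3 (vertical axis), of all 1309 measured genes of chromosome 19 by rank along the chromosome (horizontal axis), with cluster genes in red, other genes named ZNF plus a number in orange and the rest in grey. The cluster genes hang below 0 as a group, with further ZNF genes below -1 toward the right.

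Close kinship between members bears on what the probe sets measured. A probe set annotated to 8 members at once (ZNF730, ZNF728, ZNF676, ZNF430, ZNF208, ZNF99, ZNF85 and ZNF43) had 11.75 and 11.74 in PC-3-BM, against 12.77 and 12.57 in PC-3, a log2 difference of -0.92 ± 0.09 SE (adjusted p = 0.00489). One annotated to ZNF98, ZNF492 and ZNF85 had 4.84 and 4.93 in PC-3-BM, against 5.74 and 5.53 in PC-3 (log2 difference -0.75 ± 0.10 SE, adjusted p = 0.00853). Both shared probe sets were lower in PC-3-BM with no overlap of the arrays. Of the genes with several probe sets of their own, ZNF208 was lower in all 3, by -0.53, -0.69 and -0.68, and ZNF493 in both, by -0.87 and -1.08. The ZNF208 probe set at -0.53 had means of 3.54 in PC-3-BM and 4.07 in PC-3. The ZNF493 probe set at -0.87 had means of 3.93 and 4.80. Both of these lay under the lower quartile in both lines, far dimmer than the probe sets used for these genes. ZNF257 was lower in the brighter of its probe sets alone: the other had 3.44 and 3.61 in PC-3-BM, against 3.75 and 3.44 in PC-3, and differed by -0.07 (adjusted p = 0.745). ZNF626 passed the test in neither, at -0.32 and 0.02. Whether probes of one member also bound transcripts of another was not tested.

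TRIM28, the co-repressor that KRAB zinc finger proteins act through, had nearly the same level on the 4 arrays. It stood at 10.93 and 10.89 in PC-3-BM, against 10.93 and 10.93 in PC-3, a log2 difference of -0.02 ± 0.07 SE (adjusted p = 0.889). Of a list of 25 genes of the KRAB silencing and DNA methylation machinery, 23 were measured, 5 were lower (21.7%) and 3 were higher (13%), against 14.8% of all genes in either direction, with a median difference of -0.15. UHRF1, which directs maintenance DNA methylation, had 8.54 and 8.76 in PC-3-BM, against 9.66 and 9.73 in PC-3, a log2 difference of -1.05 (adjusted p = 0.00443). SUV39H2, an H3K9 methyltransferase, had 7.58 and 7.44 in PC-3-BM, against 8.44 and 8.43 in PC-3, a log2 difference of -0.92 (adjusted p = 0.00379). These were the strongest falls of the list. TASOR and MPHOSPH8, both subunits of the HUSH silencing complex, moved in opposite directions, TASOR by -0.48 (adjusted p = 0.0114) and MPHOSPH8 by 0.47 (adjusted p = 0.022). SETDB1, with 8.08 and 7.74 in PC-3-BM and 7.71 and 7.72 in PC-3, did not pass the test (log2 difference 0.19, adjusted p = 0.347).

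The promoters of the cluster were poor in CpG. The ratio of observed to expected CpG in the 250 bases before the start site had a median of 0.43 over 28 members, against 0.77 over 232 windows of other chromosome 19 genes named ZNF plus a number and 0.56 over all windows. Among members with a window and a measured level, the median was 0.38 in 7 genes lower by more than 1, 0.44 in 11 genes with smaller falls and 0.44 in 9 genes not past the test, and the ranges overlapped. ZNF730, with the greatest fall, had 0.54, and ZNF708 had 0.20, the lowest of the cluster. By copies of the octamer, 9 of 12 measured genes with 1 copy were lower (median difference -0.84), and 9 of 15 with 2 copies (median -0.59). Over all genes 14.8% were lower. The part of copy number in the falls was not tested. The motif GGGCGG, the core of a GC box bound by SP1, stood on either strand in the first window of 75% of 28 members, against 62.1% of windows of the other chromosome 19 zinc finger genes, 55.8% of those on other chromosomes and 42.6% of all windows. No methylation was measured in these samples.

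**Figure D4:**
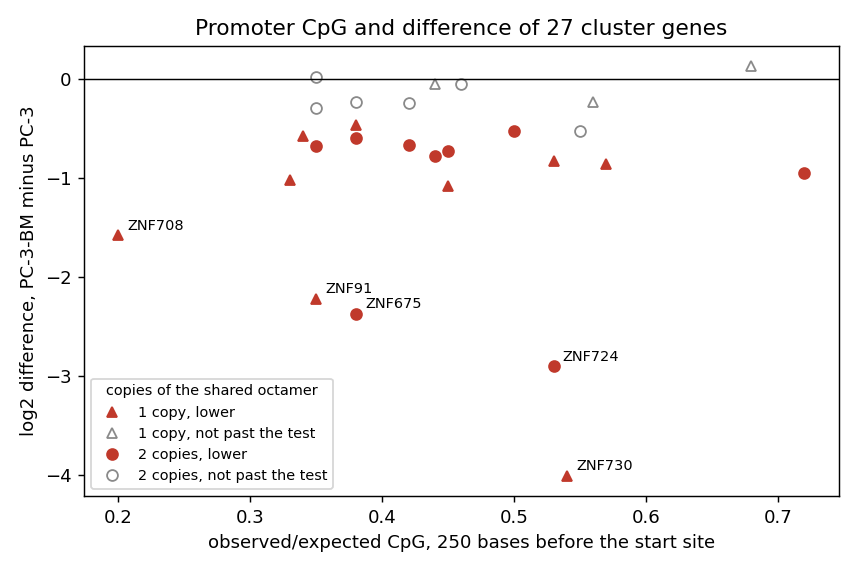
Log2 difference, PC-3-BM minus PC-3 (vertical axis), against the ratio of observed to expected CpG (horizontal axis) for 27 cluster genes, with triangles for 1 copy and circles for 2 copies of the shared octamer, filled red for lower and open grey for not past the test. The CpG ratio spans 0.20 to 0.72 in lowered genes and 0.35 to 0.68 in uncalled genes, and the spans overlap.

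The arrays of a line resembled each other closely (r = 0.996 for PC-3-BM and 0.997 for PC-3 over probe sets, which do not count as replicates), and their medians ran from 6.66 to 6.72. Of the 18 markers listed to check the cells, 14 were measured here. The epithelial keratins KRT8 (8.83 and 9.05 in PC-3-BM, against 11.02 and 10.93 in PC-3) and KRT18 (10.31 and 10.43, against 10.83 and 10.71) were bright in both lines and lower in PC-3-BM, as was EPCAM. Of the blood markers, PTPRC was at 3.93 and 4.05 in PC-3-BM and at 3.81 and 3.70 in PC-3, under the lower quartile. CD14 was above it, at 6.28 and 6.31 in PC-3-BM and 6.40 and 6.32 in PC-3, while HBB, with means of 4.88 in PC-3-BM and 5.02 in PC-3, lay close to it, and none of these 3 passed the test. COL1A1 was higher in PC-3-BM by 0.68 and PECAM1 by 0.45, while KLK3, COL1A2, COL3A1, PDGFRB, VWF and CDH5 did not pass the test. The part of these marker differences in the levels of the zinc finger genes was not tested.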

How the data were processed

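Total RNA of each line was hybridised to Affymetrix Human Gene 1.0 ST arrays, and the authors deposited log2 expression values made with RMA, which corrects background, equalises the arrays and summarises probes. Tools listed in the submitters' processing notes were limma 3.24 and R 3.2. The 33297 probe sets were used as deposited. The platform annotation gave 19460 probe sets 1 symbol, 1754 several and 12083 none. Gene order came from RefSeq (GRCh38.p14), and the files name no build.

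PC-3-BM and PC-3 were compared in limma 3.58.1 (R 4.3.3) with empirical Bayes moderation (2.88 prior degrees of freedom) and p-values adjusted by Benjamini-Hochberg across the whole table. The script was tested on simulated data. With 2 arrays per line the smallest two-sided p of an exact permutation test is 0.333, and the number of arrays limits the precision. A shift shared by most genes would be lost in RMA. The members and lists were chosen with earlier results of these data known. Values on every array were given for members with an absolute log2 difference above 1 at an adjusted p below 0.05. Of the others, the brightest pair and those with overlapping arrays were named by the same rule. ZNF726, ZNF254, ZNF431, ZNF14, ZNF101, ZNF93, SETDB1 and ZNF382 were added after their values were seen. Motifs were searched in the 250 bases before each start site. Alternatives were arrays left out in turn, a replicate block, scaling, brightness filters, 1-symbol probe sets, a variance trend and gene means.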

Additional observations from a re-analysis of the deposited data

How the results depend on the processing

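No measured member was called higher under any alternative run. Leaving out 1 array gave 12 to 15 lower members, a median difference of -0.65 to -0.48 and 14 to 22 lower genes named ZNF plus a number elsewhere on chromosome 19, against 19, -0.57 and 36 with all arrays. In these 4 fits the lone array of a line was assumed to vary like the other line, and 2.8 to 5.24% of all probe sets were called lower. Across these fits the 19 members called lower with all arrays differed by -4.34 (ZNF730) to -0.40 (ZNF254) on the log2 scale. The median was -0.54 with arrays centred on their medians, -0.52 with the mean over the probe sets of a gene, under which ZNF257 differed by -0.45 (adjusted p = 0.0639), and -0.83 with probe sets above a mean of 5 or of 6, where 17 and 15 members were left. Centring moved all differences by the same amount, and the gene means changed only members with several probe sets. The filters changed which members were counted and not the difference of those left. The brightness filters took the mean of all 4 arrays, so a member dim in PC-3-BM could pass them through PC-3. ZNF730 did so, with means of 4.35 in PC-3-BM and 8.36 in PC-3. With the replicate number as a block 19 members were lower, while 9.37% of all probe sets were called lower in that fit. The array numbers were not taken to pair the samples, since the deviations of same-numbered arrays correlated at -0.017 over 33297 probe sets. No result reversed. Falls over 1 numbered 7 or 8 throughout. Dim members limit what could be seen: 14 had means under the lower quartile in both lines.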
